A study of Mus musculus with 2 samples.

Results

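Platelet-derived growth factors are secreted dimers that drive the migration and division of connective tissue cells, and the genes described here are all their ligands and receptors in the mouse: the 4 ligand genes Pdgfa, Pdgfb, Pdgfc and Pdgfd and the 2 receptor genes Pdgfra and Pdgfrb. They were taken by symbol from the feature lists, which name 27998 genes, and all 6 were found, each under 1 identifier. Wild-type C57BL/6 mice received 2 mm defects in a parietal bone of the skull and a hydrogel in the defect, and the tissue was taken 14 days later. Defects with a CGG-Cit hydrogel gave 1 library and defects with a CGG hydrogel gave the other, so both groups share the surgery, the strain and the presence of a hydrogel. The labels give both hydrogels as abbreviations alone, and no number of mice per library. The series title names neutrophil-stimulated recruitment of MSCs, and PDGF is a classic recruitment signal for stromal cells.

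The chains of PDGF-A and PDGF-B are cut inside the cell by furin-like proteases and leave it as active dimers. PDGF-C and PDGF-D leave it as latent dimers whose CUB domain has to be removed outside, by tissue plasminogen activator for PDGF-C and by urokinase or matriptase for PDGF-D. The receptor tyrosine kinase PDGFR-alpha binds the A, B and C chains and marks fibroblasts and skeletal progenitors, while PDGFR-beta binds the B and D chains and is best known on pericytes and smooth muscle of vessels. In healing bone, platelets, macrophages and preosteoclasts are described as sources of PDGF-BB, and endothelial PDGF-B is needed to hold pericytes on vessels.

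Promoter windows from RefSeq (GRCm38.p6) are shown for 4 of the genes, so that the broadly found Pdgfa can be set against Pdgfc, Pdgfd and Pdgfra, whose UMIs were led by stromal cells. Those of Pdgfb and Pdgfrb are not shown here. Each runs 5′ to 3′ from 250 bases before to 50 after a start site, with capitals marking a GC box (GGGCGG or CCGCCC) or a TATA box (TATAAA or TTTATA). The Pdgfa window is chr5:138994895-138995194 on the minus strand, the more upstream of its 2 starts. The others lie on the plus strand, Pdgfc at chr3:81036166-81036465, Pdgfd at chr9:6168236-6168535 and Pdgfra at chr5:75152001-75152300.
Pdgfa: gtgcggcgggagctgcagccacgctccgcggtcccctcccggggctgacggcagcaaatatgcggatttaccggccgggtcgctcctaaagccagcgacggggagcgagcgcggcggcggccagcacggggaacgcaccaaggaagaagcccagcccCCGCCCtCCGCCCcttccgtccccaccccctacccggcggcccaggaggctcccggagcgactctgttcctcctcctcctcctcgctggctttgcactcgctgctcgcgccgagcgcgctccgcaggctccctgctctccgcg
Pdgfc: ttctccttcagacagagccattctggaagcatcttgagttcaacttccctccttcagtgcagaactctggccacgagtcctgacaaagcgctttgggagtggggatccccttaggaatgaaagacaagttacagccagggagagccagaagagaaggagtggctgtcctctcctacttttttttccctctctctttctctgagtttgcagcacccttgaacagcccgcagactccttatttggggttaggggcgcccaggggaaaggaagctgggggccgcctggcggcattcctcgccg
Pdgfd: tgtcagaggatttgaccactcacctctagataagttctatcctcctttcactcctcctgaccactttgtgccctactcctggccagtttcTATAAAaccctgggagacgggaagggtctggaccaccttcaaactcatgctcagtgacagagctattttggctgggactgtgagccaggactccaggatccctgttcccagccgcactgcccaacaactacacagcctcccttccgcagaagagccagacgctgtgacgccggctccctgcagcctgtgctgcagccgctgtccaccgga
Pdgfra: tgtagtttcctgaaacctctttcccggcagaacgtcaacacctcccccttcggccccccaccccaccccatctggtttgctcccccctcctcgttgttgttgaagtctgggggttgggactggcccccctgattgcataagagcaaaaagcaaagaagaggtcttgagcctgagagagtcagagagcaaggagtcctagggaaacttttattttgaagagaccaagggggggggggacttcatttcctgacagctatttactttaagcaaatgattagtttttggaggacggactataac
The Pdgfa window held 2 GC boxes and was 73.3% G and C, the other Pdgfa window held 1 GC box, and the Pdgfd window held 1 TATA box, with 56.7% G and C. Neither motif was found in the Pdgfc (55.0% G and C) or Pdgfra (51.0%) windows. Of 32851 mouse windows of this length 35.7% held a GC box and 13.6% a TATA box on either strand, so each match is a description and not a shown binding site.

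Depth was counted in UMIs, the molecular tags that count captured RNA molecules, with 106173570 UMIs over 10806 barcodes in CGG-Cit and 92517884 UMIs over 12527 barcodes in CGG. After filtering, 9994 CGG-Cit cells and 11048 CGG cells were kept, with median depths of 5913.5 and 3969 UMIs, and 34 barcodes occurred in both libraries. With 1 library per group nothing could be tested, and the 95% intervals given throughout cover no more than counting error. Cells were put into classes by marker genes other than the 6 genes described, and cells with markers of several classes were set apart. The markers held back to check each class were at least 2-fold above all other cells for 8 of 8 genes in stromal, endothelial and macrophage cells of both libraries and in the mural cells of CGG. Some classes fell short. In CGG 3 of 4 genes passed in osteoclasts, 4 of 5 in myeloid progenitors and 7 of 8 in monocytes. In megakaryocyte and platelet cells 5 of 6 passed in each library. Stromal cells numbered 56 in CGG-Cit and 2424 in CGG, endothelial cells 50 and 211, macrophages 28 and 1297, and mural cells, the pericytes and smooth muscle around vessels, 2 and 81. Levels are given as CPM, the UMIs of a gene per 1000000 UMIs of the class. B lineage, erythroid and neutrophil cells, pooled as cells that should hold these RNAs only as free RNA in the droplet, stood at 0.0177 to 0.283 CPM in CGG-Cit and at 1.22 to 3.83 CPM in CGG for the 6 genes, with median depths of 4743 and 4473 UMIs. The highest CGG-Cit value, 0.283 CPM, is that of Pdgfd, where 13 of the 16 UMIs lay in erythroid cells (0.874 CPM), beside 0.0929 CPM in B lineage cells and 0.0498 CPM in neutrophils.

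Among the ligands, Pdgfa was spread over vessel wall, stromal, myeloid and glial cells. Pdgfa (ENSMUSG00000025856, chromosome 5, 138976014 to 138997370, minus strand of GRCm38) encodes the A chain, a ligand of PDGFR-alpha. In CGG-Cit it reached 72.9 CPM in endothelial cells (52.1 to 99.3, 40 UMIs), 44.7 CPM in macrophages (23.8 to 76.5, 13 UMIs), 43.5 CPM in stromal cells (31.6 to 58.4, 44 UMIs) and 23.8 CPM in dendritic cells (10.9 to 45.2, 9 UMIs). The intervals of the upper 3 classes overlapped. In CGG the order was glial cells at 525 CPM (398 to 680, 11 cells), mural cells at 399 CPM (341 to 465), osteoclasts at 100.5 CPM (70.0 to 139.7, 12 cells), endothelial cells at 85.3 CPM (71.7 to 100.8), macrophages at 69.8 CPM (64.9 to 74.9), stromal cells at 48.0 CPM (45.3 to 50.8) and dendritic cells at 16.5 CPM (9.44 to 26.8). Glial and mural cells overlapped, as did osteoclasts and endothelial cells and, marginally, endothelial cells and macrophages, whereas stromal cells lay below macrophages beyond counting error. Glial, mural and osteoclast cells each numbered 2 or fewer in CGG-Cit, so their levels in these classes are not given. The Leiden clusters called mural held 12 CGG-Cit cells, with 340 CPM of Pdgfa (255 to 445, 53 UMIs) and 366 CPM of Pdgfrb (277 to 474, 57 UMIs), and 269 CGG cells with 349 CPM (316 to 384) and 415 CPM (379 to 454). That level of Pdgfa in CGG-Cit lay above that of endothelial cells. All 12 CGG-Cit cells were in the cluster led by Rgs5 and Myh11, which held 135 of the CGG cells. Monocytes stood at 1.24 CPM in CGG-Cit and 3.29 CPM in CGG, where free RNA stood at 3.83 CPM.

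Pdgfb was highest in endothelial cells, followed in CGG-Cit by macrophages and in CGG by glial cells, osteoclasts and then macrophages, with a smaller level in T and NK cells. Among other myeloid classes, neutrophils held 0 UMIs in CGG-Cit and 8 UMIs in CGG, and myeloid progenitors 0 and 4 UMIs. Pdgfb (ENSMUSG00000000489, chromosome 15, 79995874 to 80014977, minus strand) encodes the B chain, which binds both receptors. Endothelial cells held 196.9 CPM in CGG-Cit (161.5 to 237.7, 108 UMIs) and 204.6 CPM in CGG (183.2 to 227.9, 331 UMIs). A Pdgfb UMI was found in 64.0% of CGG-Cit endothelial cells and 53.6% of CGG ones, against 0.0962% and 0.903% of the free-RNA cells, and with every cell thinned to 2000 UMIs the endothelial shares were 25.5% and 30.8%. Macrophages stood at 82.6 CPM in CGG-Cit (52.9 to 122.9, 24 UMIs) and 46.0 CPM in CGG (42.1 to 50.3, 503 UMIs). In CGG the 12 osteoclasts reached 106.2 CPM (74.8 to 146.4) with a UMI in 83.3% of cells, and the 11 glial cells 128.9 CPM (70.5 to 216.3). The osteoclast and glial intervals overlapped, and that of osteoclasts lay below that of endothelial cells while that of glial cells overlapped it. Stromal cells of the gate held no Pdgfb UMI in CGG-Cit, which allows up to 2.97 CPM at a floor of 3 UMIs (3.65 CPM at the exact upper limit), and 2.38 CPM in CGG (1.81 to 3.08), close to the free-RNA level of 1.38 CPM. The Leiden stromal clusters held 10.3 CPM in CGG-Cit (5.50 to 17.7, 13 UMIs in 3 of 75 cells) and 4.97 CPM in CGG (4.22 to 5.81). Platelets gave the family its name, but the cells with megakaryocyte and platelet markers were few. They held 4 Pdgfb UMIs in CGG-Cit, all in 1 of 18 cells, and 1 UMI in 1 of 10 cells in CGG.

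Pdgfc and Pdgfd, the ligands that need cleavage outside the cell, were both found in stromal cells, with Pdgfc also in macrophages of CGG and Pdgfd at similar or higher levels in endothelial cells. Pdgfc (ENSMUSG00000028019, chromosome 3, 81036416 to 81214040, plus strand), a ligand of PDGFR-alpha, stood in stromal cells at 56.4 CPM in CGG-Cit (42.7 to 73.0, 57 UMIs) and 53.3 CPM in CGG (50.5 to 56.3, 1299 UMIs). Its next highest class was macrophages, with 0 UMIs in the 28 CGG-Cit cells and 35.6 CPM in CGG (32.2 to 39.3, 389 UMIs), overlapping CGG mural cells at 33.7 CPM (18.4 to 56.5). Pdgfd (ENSMUSG00000032006, chromosome 9, 6168584 to 6378850, plus strand), a ligand of PDGFR-beta, stood in endothelial cells at 40.1 CPM in CGG-Cit (25.1 to 60.7, 22 UMIs) and 34.0 CPM in CGG (25.6 to 44.3, 55 UMIs). In stromal cells Pdgfd held 31.6 CPM in CGG-Cit (21.6 to 44.7, 32 UMIs) and 24.5 CPM in CGG (22.5 to 26.5, 596 UMIs). Endothelial and stromal Pdgfd overlapped in both libraries, and macrophages were at 0 UMIs in CGG-Cit and 1.46 CPM in CGG, the free-RNA level there being 1.22 CPM.

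The receptors divided the tissue cells. Pdgfra (ENSMUSG00000029231, chromosome 5, 75152292 to 75198215, plus strand), which encodes PDGFR-alpha, was a stromal gene, at 95.9 CPM in CGG-Cit stromal cells (77.8 to 117.0, 97 UMIs) and 150.7 CPM in CGG stromal cells (145.9 to 155.6, 3670 UMIs). A Pdgfra UMI was found in 73.2% of CGG-Cit and 49.7% of CGG stromal cells, against 0.0137% and 2.26% of the free-RNA cells, and with cells thinned to 2000 UMIs in 26.4% and 25.7% of stromal cells. In every other named class with at least 10 cells it stood at or below 3.65 CPM in CGG-Cit and 10.04 CPM in CGG, and mural cells of CGG held a single UMI (2.40 CPM, 0.0609 to 13.4). Pdgfrb (ENSMUSG00000024620), which encodes PDGFR-beta, was highest in mural cells, at 819.7 CPM in CGG (735.0 to 911.5, 341 UMIs in 81 cells), with a UMI in 71.6% of cells. Stromal cells held 108.8 CPM of Pdgfrb in CGG-Cit (89.4 to 131.1, 110 UMIs) and 106.9 CPM in CGG (102.8 to 111.1, 2603 UMIs). A Pdgfrb UMI was found in 78.6% of CGG-Cit and 43.6% of CGG stromal cells, and after thinning in 18.9% and 18.4%. Endothelial cells followed at 10.9 CPM in CGG-Cit (4.01 to 23.8, 6 UMIs) and 25.3 CPM in CGG (18.2 to 34.4, 41 UMIs), and mural, stromal and endothelial levels did not overlap. The 72 CGG-Cit and 23 CGG cells of the mast and basophil gate held 2 UMIs and 1 UMI of Pdgfrb, but the Leiden cluster led by Prss34, Mcpt8 and Cpa3 held 14.5 CPM in CGG-Cit (10.7 to 19.2, 49 UMIs in 37 of 225 cells) and 16.7 CPM in CGG (10.4 to 25.2, 22 UMIs in 16 of 80 cells). Macrophages were at 0 UMIs of either receptor in CGG-Cit, and at 5.58 CPM of Pdgfra and 4.76 CPM of Pdgfrb in CGG, where free RNA stood at 3.83 and 3.09 CPM.

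**Figure D1:**
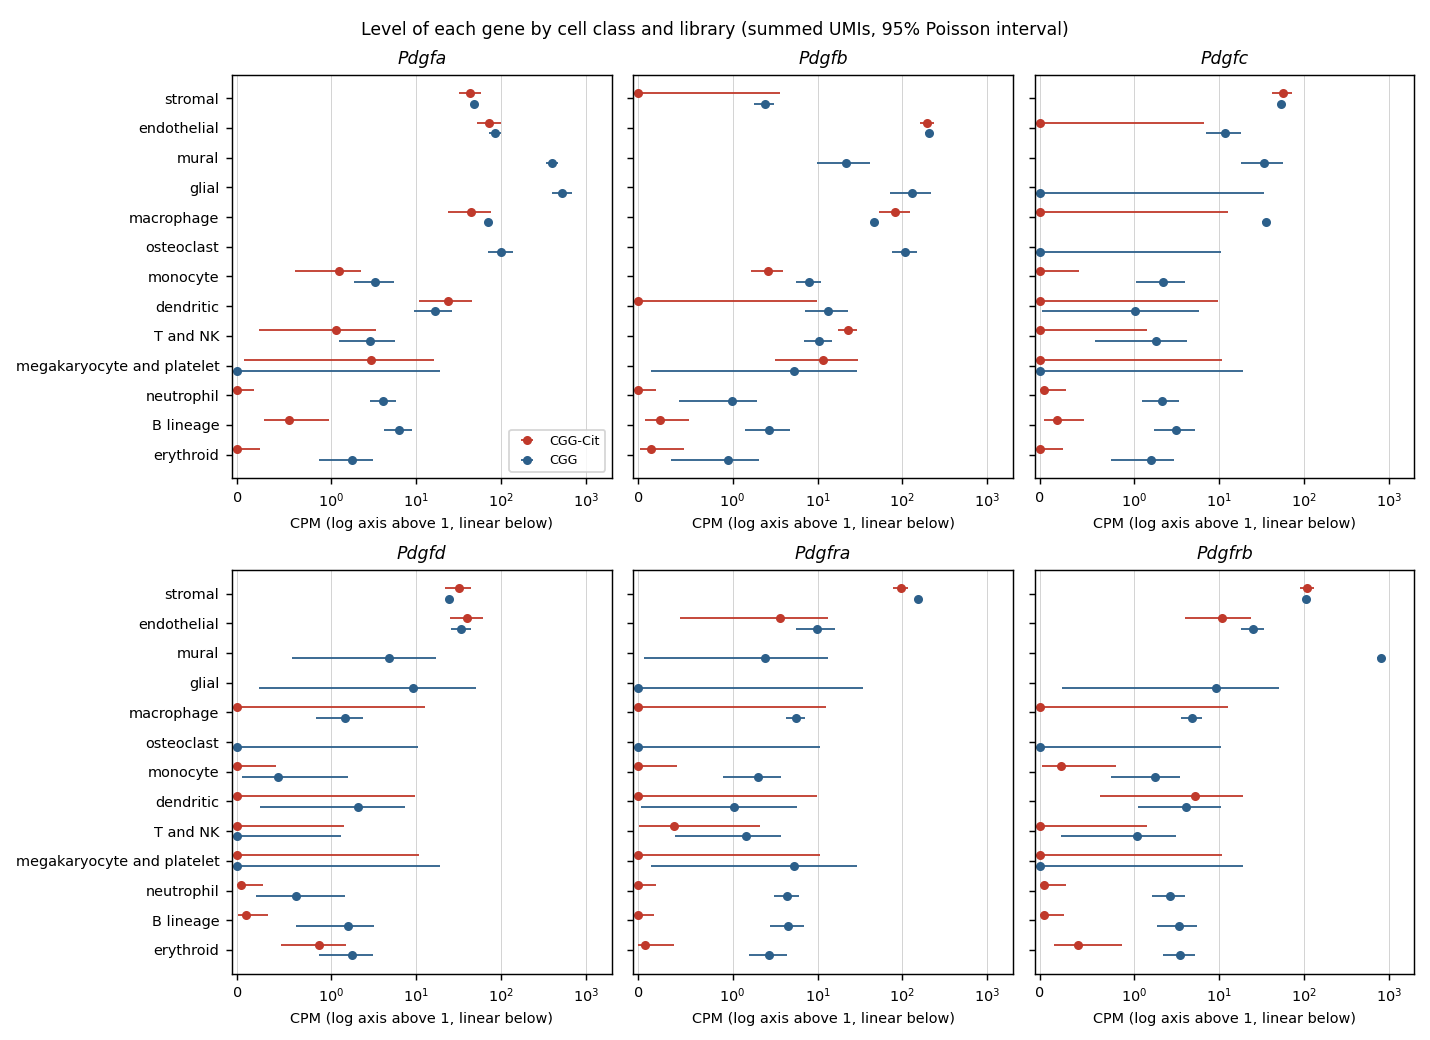
CPM of each gene (x axis, log above 1 and linear below) in 13 cell classes with at least 10 cells (y axis), CGG-Cit in red above CGG in blue, with 95% Poisson intervals. Pdgfra stands out in stromal cells alone, Pdgfrb in mural and stromal cells, and the haematopoietic classes at the bottom lie higher in CGG than in CGG-Cit for most genes.

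In the plot of levels by class, stromal and endothelial cells and macrophages kept 1 order in both libraries for Pdgfa, Pdgfb and Pdgfd. The floor set by free RNA was at least 1.22 CPM for every gene in CGG and at most 0.283 CPM in CGG-Cit, so low CGG values in blood cells are not read as expression.

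The cells that held each gene differed between the libraries, and so did the cells in each library. Stromal cells took up 1.06% of all UMIs in CGG-Cit and 29.7% in CGG. Even so they held 90.7% of the Pdgfra UMIs in CGG-Cit (97 of 107, interval 83.5 to 95.4%) and 85.1% in CGG (3670 of 4312, 84.0 to 86.2%). For Pdgfc the stromal share was 85.1% in CGG-Cit (57 of 67, 74.3 to 92.6%) and 64.3% in CGG (62.2 to 66.4%), with a further 19.3% of CGG UMIs in macrophages. Pdgfb came in CGG-Cit mainly from endothelial cells (39.1%, 108 of 276 UMIs, 33.3 to 45.2%) and T and NK cells (21.7%, 17.0 to 27.1%), with 8.70% in macrophages (5.65 to 12.7%). In CGG macrophages held 37.8% (35.2 to 40.4%) and endothelial cells 24.8% (22.5 to 27.3%), with 2.18% in T and NK cells.

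Pdgfd UMIs lay in stromal and endothelial cells, at 41.6% and 28.6% in CGG-Cit and 71.7% and 6.62% in CGG. In CGG-Cit 13 of the 77 Pdgfd UMIs fell in erythroid cells. Pdgfa had no leading class in CGG-Cit, with 18.3% in stromal cells, 16.7% in endothelial cells and 37.1% in cells with markers of several classes, whereas in CGG stromal cells held 36.6% and macrophages 23.9%. The receptor Pdgfrb was in stromal cells at 39.7% in CGG-Cit (33.9 to 45.7%) and 68.6% in CGG (67.1 to 70.1%), and mural cells held a further 8.99% in CGG. Of the 277 Pdgfrb UMIs of CGG-Cit, 79 were in cells with markers of several classes, 40 in cells of no class and 20 in myeloid progenitors. The 9 CGG-Cit cells with markers of both mural and stromal cells held 50 Pdgfa and 49 Pdgfrb UMIs, against 2 Pdgfra UMIs. The 2 CGG-Cit cells that the gate called mural held 8 Pdgfrb UMIs.

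**Figure D2:**
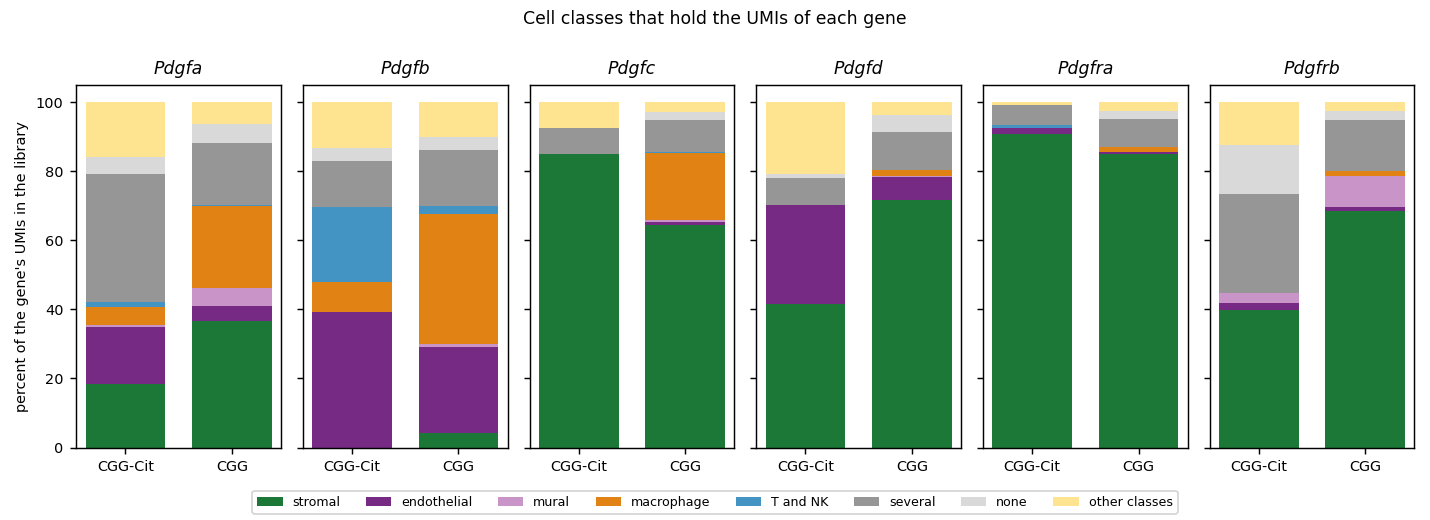
Percent of the UMIs of each gene (y axis) held by each cell class, with CGG-Cit as the left bar and CGG as the right bar of each panel. Stromal cells hold most Pdgfra UMIs in both libraries, while T and NK cells hold 21.7% of Pdgfb UMIs in CGG-Cit and 2.18% in CGG.

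The bars of sources add up all UMIs of a gene in a library, so a class can hold a large share either through a high level or through many cells. In CGG-Cit the 50 endothelial cells carried 0.573% of all UMIs and 39.1% of the Pdgfb UMIs.

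Taken over whole libraries, all 6 genes were lower in CGG-Cit than in CGG. Pdgfra had 1.12 CPM in CGG-Cit (107 UMIs) and 52.5 CPM in CGG (4312 UMIs), 47.0-fold lower (38.8 to 57.5). Pdgfc had 0.699 and 24.6 CPM in CGG-Cit and CGG, 35.2-fold lower (27.6 to 45.6). Pdgfrb had a ratio, CGG-Cit over CGG, of 0.0626 (0.0552 to 0.0707), at 2.89 CPM in CGG-Cit against 46.2 CPM in CGG. Pdgfa was 15.5-fold lower (13.6 to 17.8), at 2.51 against 38.9 CPM, and Pdgfd 12.6-fold lower (9.96 to 16.1), at 0.804 against 10.1 CPM. Pdgfb differed least, 5.63-fold lower (4.94 to 6.43), at 2.88 CPM in CGG-Cit and 16.2 CPM in CGG. Of all 16956 genes with at least 10 UMIs in the libraries together, 36.6% differed past 2-fold with a counting interval that left out 1, and 30.2% were called lower in CGG-Cit. A called lower gene was therefore common, beside 6 of 6 members, and the median log2 ratio over all genes was -0.26. The share of stromal, endothelial, mural and macrophage cells moved with these ratios (stromal cells were 0.560% of CGG-Cit and 21.9% of CGG cells). In such sums fewer cells of a type and less RNA per cell cannot be told apart.

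Among genes with a UMI in both libraries, the ratios within stromal cells, endothelial cells and macrophages lay closer to 1 than the whole-library ratios of the same genes. In stromal cells none of the 5 genes that could be compared was past 2-fold, where 6.85% of all genes were in either direction. The stromal ratio, CGG-Cit over CGG, was 0.907 for Pdgfa (0.655 to 1.22), 1.06 for Pdgfc (0.796 to 1.38), 1.29 for Pdgfd (0.876 to 1.85) and 1.02 for Pdgfrb (0.833 to 1.23). Those 4 intervals included 1. The Pdgfra ratio was 0.637 (0.515 to 0.779), lower in CGG-Cit beyond counting error but short of 2-fold, and its log2 value of -0.65 was -0.29 (-1.17 to 0.47) with cells thinned to 2000 UMIs. Stromal cells differed in depth, with medians of 17103 UMIs in CGG-Cit and 4296.5 UMIs in CGG. They also differed in the subsets that markers found, with dura-like cells 13 of 56 in CGG-Cit and 130 of 2424 in CGG. Cells in no subset were 22 of 56 in CGG-Cit (median 17970.5 UMIs) and 1700 of 2424 in CGG (median 2421.5 UMIs). The dura-like shares therefore come from cells of unequal depth. The part of depth and makeup in the Pdgfra ratio was not tested.

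Endothelial cells gave ratios of 0.855 for Pdgfa (0.586 to 1.22), 0.962 for Pdgfb (0.767 to 1.20) and 1.18 for Pdgfd (0.685 to 1.97), each with an interval that included 1. Endothelial Pdgfc, at 0 UMIs in CGG-Cit and 19 UMIs (11.7 CPM) in CGG, was at least 2.15-fold lower with 3 UMIs as the CGG-Cit floor, while the exact interval reached down to 1.58-fold, and it was the 1 gene of the 6 called there, beside 8.1% of all genes called in either direction and 5.72% called lower. Free RNA of Pdgfc stood at 0.0885 CPM in CGG-Cit and 2.18 CPM in CGG. With Leiden clusters in place of the gate the endothelial Pdgfb log2 ratio was 0.69, but 577 of the 743 CGG cells then came from a cluster led by Apold1 and the mural marker Rgs5. In macrophages Pdgfb was 1.79-fold higher in CGG-Cit (1.14 to 2.70), short of 2-fold, and Pdgfa had a ratio of 0.642 (0.340 to 1.10). Macrophage Pdgfc, at 0 UMIs in CGG-Cit, was at least 3.45-fold lower at the same floor (2.79-fold at the limit of the exact interval) and the 1 gene called of 3 compared, beside 4.84% of all genes called in either direction and 2.54% called lower. These 28 cells are few, and with 73 CGG-Cit cells of the Leiden macrophage cluster Pdgfb was at 35.0 CPM in CGG-Cit and 44.7 CPM in CGG, a log2 ratio of -0.35 (-1.04 to 0.26). Pdgfa stood there at 14.3 CPM in CGG-Cit and 69.4 CPM in CGG, a log2 ratio of -2.28 (-3.41 to -1.35).

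T and NK cells were the class with more Pdgfb in CGG-Cit past 2-fold. They held 22.9 CPM in CGG-Cit (17.5 to 29.5, 60 UMIs in 441 cells) and 10.4 CPM in CGG (6.96 to 14.9, 29 UMIs in 555 cells), a ratio of 2.21 (1.39 to 3.57), where 2.69% of all genes were called higher. A UMI was found in 10.9% of these cells in CGG-Cit and 3.96% in CGG, and after thinning in 4.62% and 2.03%. With 1 more marker required, in 322 and 343 cells, the log2 ratio was 2.16 instead of 1.14, and with thinned cells it was 0.63 (-0.36 to 1.64), under 2-fold. Monocytes went the other way, with Pdgfb at 2.59 CPM in CGG-Cit (23 UMIs) and 7.90 CPM in CGG (36 UMIs), a ratio of 0.328 (0.186 to 0.569), where 9.33% of all genes were called lower. With thinned cells the monocyte log2 ratio of -1.61 was -0.87 (-2.53 to 0.73), under 2-fold. The other 3 monocyte comparisons, for Pdgfa, Pdgfc and Pdgfrb, were also called lower, each at a CGG level near or under that of free RNA.

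In the remaining blood classes levels were low. Neutrophils, B lineage and erythroid cells are themselves the cells that set the free-RNA level, so their ratios and the higher CGG level of free RNA are the same counts and not separate observations. All 4 genes compared were called lower in neutrophils (12.9% of all genes), all 5 in B lineage cells (13.2%), all 3 in myeloid progenitors (8.45%) and 4 of 5 in erythroid cells (8.7%). Neutrophil, B lineage and erythroid levels ran from 0.624 to 6.27 CPM in CGG, and the smallest of these ratios, for B lineage Pdgfrb, was 0.0138 (0.000329 to 0.0899, 1 UMI in CGG-Cit and 15 UMIs in CGG). None of 2 was called in dendritic cells, where 20.8% of all genes were, with Pdgfa at 23.8 CPM in CGG-Cit and 16.5 CPM in CGG. Depth differed most in myeloid progenitors, with medians of 33695 UMIs in CGG-Cit and 2333 UMIs in CGG. RNA of the tissue cells moved with their ratios, with Sparc at 1.98 CPM in CGG-Cit and 691 CPM in CGG and Ccl2 at 2.55 and 338 CPM, and its part was not tested. In the Leiden cluster of myeloid progenitors Pdgfrb stood at 0.469 CPM in CGG-Cit (4 UMIs) and 0.838 CPM in CGG (1 UMI).

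**Figure D3:**
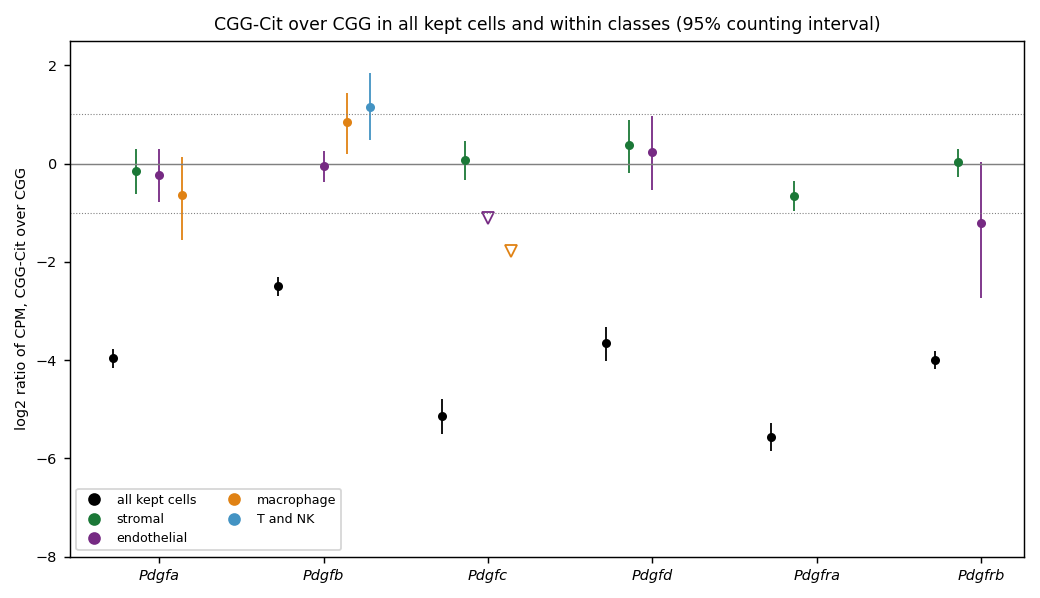
Log2 ratio of CPM, CGG-Cit over CGG (y axis), for each gene in all kept cells (black) and within 4 classes (colours), with 95% counting intervals, for genes with at least 30 UMIs over both libraries. Open triangles, drawn whatever the UMI number, are Pdgfc ratios in endothelial cells and macrophages with the 0 UMIs of CGG-Cit set to 3. The exact upper limits lie higher, at -0.66 and -1.48. Dotted lines mark 2-fold. The whole-library ratios lie between -5.55 and -2.49, while stromal ratios lie between -0.65 and 0.37.

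The plot of ratios sets each whole-library value beside those within classes. The gap between black and coloured points is the contrast between what a library contained and what a cell of a given class contained.

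T and NK cells and macrophages were split further after their values had been seen. The point value of Pdgfb was highest in cells with NK markers and no Cd3 gene. Cells with NK markers and no Cd3 gene on held 39.8 CPM in CGG-Cit (27.6 to 55.7, 34 UMIs in 130 cells) and 25.9 CPM in CGG (12.4 to 47.6, 10 UMIs in 69 cells), and the intervals of the libraries overlapped. Cells with Cd3 genes and no NK marker held 6.31 CPM in CGG-Cit (2.05 to 14.7), below the interval of those cells, and 11.7 CPM in CGG (6.81 to 18.7), overlapping it. Cells with both held 21.6 CPM in CGG-Cit (13.4 to 33.1, 21 UMIs in 159 cells) and 2.11 CPM in CGG (0.255 to 7.62, 2 UMIs in 166 cells), the lowest of the 3 groups in CGG, without overlap between the libraries. Of the class, cells with NK markers and no Cd3 gene were 130 of 441 in CGG-Cit and 69 of 555 in CGG, and cells with both were 159 and 166, so the mix moved with the ratio.

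Macrophages of CGG, where they were many, held the 3 ligands at different levels in cells split by 2 markers. Folr2, a marker of resident macrophages, and Gpnmb, a gene of lipid-handling and scar-associated macrophages, are both also markers of the gate. Cells with Folr2 on and Gpnmb off held 55.4 CPM of Pdgfc (47.2 to 64.6) and 48.3 CPM of Pdgfa (40.6 to 56.9). Cells with Gpnmb on and Folr2 off held 28.0 CPM of Pdgfc (22.9 to 34.0) and 74.9 CPM of Pdgfa (66.4 to 84.3). Pdgfb was highest with neither marker on, at 73.2 CPM (64.0 to 83.4), against 46.9 CPM with Folr2 (39.4 to 55.4) and 23.7 CPM with Gpnmb (19.0 to 29.2). With both markers on, Pdgfc stood at 52.7 CPM (40.3 to 67.7), near the Folr2 group, and Pdgfa at 81.2 CPM (65.6 to 99.4), near the Gpnmb group. The median depths were 8496.5 UMIs with Folr2, 5634 with Gpnmb, 6043 with neither and 10654 with both. The 28 CGG-Cit macrophages were too few to split, with 15 of them at neither marker and 22 of their 24 Pdgfb UMIs in those.

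Stromal cells also divided by receptor and ligand. The subset markers left 1700 of the 2424 CGG stromal cells in no subset, at a median depth of 2421.5 UMIs and 156.0 CPM of Pdgfra (149.4 to 162.8). The median depth of the fibroblasts described next was 14754 UMIs. In CGG the 345 cells with markers of Sfrp2 and C1qtnf3 fibroblasts had the most Pdgfra of the named subsets, at 170.9 CPM (160.1 to 182.3), and the most Pdgfd, at 42.1 CPM (36.8 to 48.0). The 130 dura-like cells had less Pdgfra, at 75.8 CPM (64.2 to 88.8), and more Pdgfa, at 68.4 CPM (57.4 to 80.8) against 23.0 CPM (19.1 to 27.4) in the fibroblasts. In CGG-Cit the same 2 subsets, with 11 and 13 cells, stood at 126.6 and 34.6 CPM of Pdgfra (82.7 to 185.5 and 14.9 to 68.2). Their Pdgfa stood there at 43.8 and 43.3 CPM (9 and 10 UMIs), and their Pdgfd at 38.9 and 38.9 CPM (8 and 9 UMIs). The differences of CGG in these ligands were therefore not seen in CGG-Cit, where the UMIs were few. Osteoblast lineage cells, 26 in CGG, had the highest Pdgfa of the stromal subsets, at 144.5 CPM (116.4 to 177.5, 91 UMIs), and kept both receptors, at 120.7 CPM of Pdgfra and 108.0 CPM of Pdgfrb. Cycling stromal cells (164 in CGG, median 3251.5 UMIs) had 146.7 CPM of Pdgfra (129.1 to 166.0), an interval that overlapped that of the fibroblasts. Their Pdgfrb had the lowest point value of these subsets, at 78.3 CPM (65.6 to 92.7), against 104.7 CPM in the fibroblasts and 116.4 CPM in dura-like cells. That interval overlapped the one of osteoblast lineage cells (83.9 to 136.9). Pdgfc ran from 41.3 to 67.8 CPM over these 4 subsets. The held-back markers were above the remaining stromal cells for 6 of 6 genes in the osteoblast lineage, 5 of 5 in the fibroblasts (none of them past 2-fold), 4 of 5 in dura-like (3 past 2-fold) and 4 of 4 in cycling cells, but for 0 of 5 in the 29 cells picked by markers of Cxcl12-abundant reticular cells, whose levels are therefore left out.

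**Figure D4:**
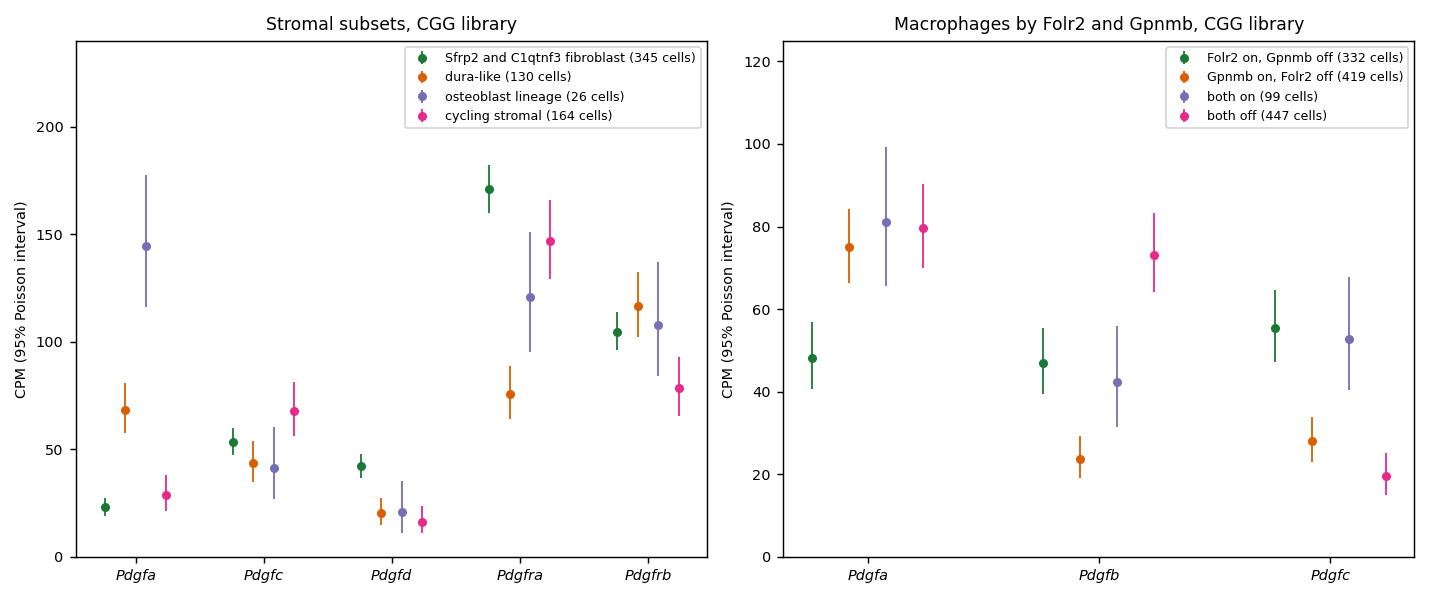
CPM with 95% Poisson intervals (y axis) in the CGG library, for stromal subsets on the left and for macrophages split by Folr2 and Gpnmb on the right. Osteoblast lineage cells have the highest stromal Pdgfa and dura-like cells the lowest Pdgfra, while among macrophages Pdgfc is higher where Folr2 is on and Pdgfb is highest where neither marker is on.

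The plot of finer classes gives the intervals for these groups, which cover counting error within 1 library and not variation between animals.

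Whether one cell held both receptors depended on how deeply it was read. UMIs of Pdgfra and Pdgfrb together were found in 62.5% of CGG-Cit stromal cells (35 of 56) and 33.8% of CGG stromal cells (820 of 2424). In CGG 68.1% of stromal cells with Pdgfra also had Pdgfrb, against 19.5% of those without, but the median depths were 15336 and 1713 UMIs. With cells thinned to 2000 UMIs these shares were 18.6% and 18.3%, so no link between the receptors was detectable at that depth. The same held for the ligands of stromal cells: at equal depth Pdgfa was found in 7.99% of cells with Pdgfra and 7.61% of those without, and Pdgfc in 7.75% and 9.87%. Macrophages differed in this. At equal depth 20.2% of CGG macrophages with Pdgfa also had Pdgfb (25 cells), against 6.37% of those without (60 cells), while Pdgfc was found in 4.84% and 6.37%. In CGG endothelial cells Pdgfd was found at equal depth in 14.3% of cells with Pdgfb (8 cells) and 3.17% of those without (4 cells). In mural cells of CGG both Pdgfrb and Pdgfa were found in 46 of 81 cells before thinning, and at equal depth Pdgfa was in 58.3% of cells with Pdgfrb and 54.2% of those without.

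The proteases and binding proteins that act on these ligands were taken from pathway lists. Plat, tissue plasminogen activator, which frees PDGF-C, was highest in stromal cells, the main source of Pdgfc, at 128.6 CPM in CGG-Cit and 215.3 CPM in CGG, a ratio of 0.597 (0.498 to 0.711). Plau, urokinase, which frees PDGF-D, was highest in macrophages, at 62.0 CPM in CGG-Cit and 64.4 CPM in CGG, with 7.91 and 16.2 CPM in stromal cells. Furin, which cuts the A and B chains, was lower in CGG-Cit macrophages at 41.3 CPM against 84.3 CPM in CGG (2.04-fold, 1.16 to 3.96). Nrp1, a co-receptor for PDGF, was highest in endothelial cells, at 632.6 CPM in CGG-Cit and 986.0 CPM in CGG. Of the 7 ligand-processing proteases 6 had enough UMIs in stromal cells and 2 were lower past 2-fold, Pcsk6, another furin-like protease (12.9 against 36.2 CPM, 2.81-fold, 1.64 to 5.31), and Plau (2.05-fold, 1.03 to 4.78). Their median log2 ratio was -0.62, against 0.02 over all genes, and 3.11% of all genes were called lower in stromal cells. With Leiden clusters the stromal Plau log2 ratio was 0.86 (0.38 to 1.30), the other way. The same 2 genes were lower among 6 proteases in endothelial cells, Pcsk6 with 1 UMI in CGG-Cit and 26 UMIs in CGG and Plau with 2 and 36 UMIs, and the median was -0.72. In macrophages Furin was the 1 called of 6, with a median of -0.49.

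Serpine2, a secreted protease inhibitor, had 34.6 CPM in CGG-Cit and 96.4 CPM in CGG endothelial cells and was 2.78-fold lower in CGG-Cit (1.72 to 4.75), where 5.72% of all genes were called lower. Its ratio was 0.693 in stromal cells (0.561 to 0.847) and 0.745 in macrophages (0.201 to 1.94), neither called. Of the 8 binding proteins and co-receptors 1 was higher in stromal cells (A2m, 5 and 18 UMIs in CGG-Cit and CGG), beside 3.74% of all genes called higher, and none lower, with a median of -0.07. In endothelial cells Lrp1, which clears ligands from the surface, and Pdgfrl, a receptor-like gene, were the 2 of 7 called lower, at 1.82 and 0 CPM in CGG-Cit against 63.7 and 18.5 CPM in CGG. In macrophages the matrix proteins Sparc (44.7 against 419.7 CPM) and Thbs1 (110.2 against 288.2 CPM) were the 2 of 7 called lower. In CGG B lineage cells Lrp1 stood at 25.5, Pdgfrl at 12.1, Sparc at 375.4 and Thbs1 at 67.2 CPM, so free RNA moved with these 4. With the free-RNA level subtracted, the log2 ratio was -0.50 for Pdgfrl, at its bound, and -1.76 for Sparc. With Leiden clusters the macrophage Thbs1 log2 ratio was 0.65 (0.46 to 0.83), the other way.

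Of the signalling genes downstream of the receptors, the adaptors and effectors had medians near those of all genes. Of 24 adaptors and effectors, 1 was called lower in stromal cells (Src, 7.91 against 16.7 CPM), 1 lower in endothelial cells (Gab1, 49.2 against 100.1 CPM, of 22) and 1 higher in macrophages (Pik3cb, 65.4 against 27.3 CPM, where 2.31% of all genes were called higher), with medians of -0.02, -0.11 and 0.03 beside 0.02 for all genes of stromal cells, -0.07 for those of endothelial cells and 0.10 for those of macrophages. The Gab1 log2 ratio was -0.37 with Leiden clusters, and that of Pik3cb was 0.50 with thinned cells, both under 2-fold. Of 11 negative regulators the feedback inhibitor Spry2 was lower in stromal cells (15.8 against 37.7 CPM, 2.38-fold, 1.46 to 4.19) and endothelial cells (9.12 against 35.2 CPM, 3.87-fold, 1.56 to 12.4). With thinned cells the stromal Spry2 log2 ratio was -0.30 instead of -1.25. The median of the negative regulators was -0.02 in stromal cells, -0.36 in endothelial cells and -0.12 in macrophages, where none of 10 was called. Of 10 immediate response genes 1 was lower in stromal cells, Fosl1, with 3 UMIs in CGG-Cit and 251 in CGG (a ratio of 0.288, 0.0590 to 0.851). In endothelial cells 2 were lower, Fosb (402.9 against 810.5 CPM) and the chemokine Ccl2 (1 UMI against 110 UMIs, a ratio of 0.0268, 0.000673 to 0.153), and none in macrophages. The medians of this list were -0.09, -0.56 and -0.02 in stromal cells, endothelial cells and macrophages. With thinned cells the endothelial Fosb log2 ratio was -0.75, under 2-fold, and Ccl2 stood at 41.9 CPM in CGG B lineage cells. In T and NK cells 5 of the 10 immediate response genes were lower, with a median of -0.85 beside -0.07 for all genes of that class, of which 7.76% were called lower. They were Fosb (102.8 CPM in CGG-Cit against 337.7 CPM in CGG), Egr1 (84.9 against 185.4 CPM), Egr2, Fosl1 and Ccl2, named after their values were seen. B lineage cells held 23.9 CPM of Fosb in CGG-Cit and 138.3 CPM in CGG. In CGG, Ccl2 stood at 31.6 CPM in T and NK cells, under the B lineage level, and Fosl1 at 4.30 CPM against 1.12 CPM in B lineage cells. The part of free RNA in these calls was not tested. Of the adaptors and effectors none of 23 was called in T and NK cells, with a median of -0.17. Of 10 negative regulators 1 was called lower there and 1 higher, with a median of -0.24, where 2.69% of all genes were called higher. The higher one was Spry2, at 138.0 CPM in CGG-Cit (361 UMIs) and 68.1 CPM in CGG (190 UMIs), opposite to its direction in stromal and endothelial cells. Of the proteases 3 of 4 were lower there and of the binding proteins 5 of 7, among them Sparc at 7.26 CPM in CGG-Cit and 221.2 CPM in CGG, where CGG B lineage cells held 375.4 CPM. Furin, at 47.0 CPM in CGG-Cit and 121.9 CPM in CGG, and Nrp1, at 35.2 and 105.4 CPM, were also among them. CGG B lineage cells held 20.4 CPM of Furin and 21.5 CPM of Nrp1.

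Over 20 profiles of 12 classes with at least 50 cells, 6841 genes were ranked by Pearson's r of log2(CPM + 10) with each of the 6. The profiles share 2 libraries, so r is a description. The nearest to Pdgfra were Lpar1, Efna5 and Prrx2 (r of 0.987 each), and the nearest to Pdgfrb were Col4a5 (0.987), Naalad2 (0.986) and Arhgap42 (0.985). For the ligands they were Tns1 (0.967), Mfge8 and Sbf2 (0.960 each) for Pdgfa; F11r (0.936), Fabp4 (0.935) and Smagp (0.926) for Pdgfb; Pmp22 (0.979), Itgb5 (0.968) and Ctsk (0.959) for Pdgfc; and Slc16a9 (0.989), Arhgap20 (0.988) and S100a16 (0.986) for Pdgfd. Among the 6 genes the closest were Pdgfa and Pdgfrb (0.831), Pdgfc and Pdgfra (0.793) and Pdgfc and Pdgfrb (0.789), and the farthest were Pdgfb and Pdgfra (-0.053).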

How the data were processed

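Calvarial defect cells of 2 libraries, 1 per hydrogel, were measured by droplet 3' RNA sequencing (10x). Values are raw, unnormalized UMI counts in the matrices that the authors deposited, made with Cell Ranger 4.0.0 per the file headers, while the submitters' processing notes name Cell Ranger 3.0 and mm10. Per the labels the kit was version 2 or 3. Barcodes with at least 200 genes and at most 20% mitochondrial UMIs were kept. Scrublet (seed 7) removed 537 doublets in CGG-Cit. In CGG its threshold marked 1 cell, under the minimum of 0.5%, so a rate of 0.8% of cells per 1000 barcodes was applied, which removed 1231. A marker counted as on at 1.5 times or more of its share in the library, and a class needed at least 3 markers and more than any unrelated class. For the stromal subsets the share was that among the stromal cells of the library. Cells where another class reached 3 markers and more than 0.5 of the leading number were set apart as several.

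Counts were summed per class and library. CPM carry exact Poisson intervals, shares exact Clopper-Pearson intervals and ratios exact conditional binomial intervals, all at 95% and for counting error only, since 1 library per group allows no test. A gene was called past 2-fold with an interval on 1 side of 1, at 10 or more UMIs over both libraries and 20 or more cells in each, and a count of 0 was set to 3 UMIs. Cells were thinned to 2000 UMIs for shares, which left out 3728 shallower cells. The procedure was tested on simulated data. Gene coordinates came from the GENCODE annotation of GRCm38, and promoter windows of 4 of the 6 genes from RefSeq. The marker genes Trac, Trbc2, Trdc, Ighm, Igkc, Ighg1, Ahsp, Snorc and Pclaf were not used here. Neutrophils were added to the free-RNA cells after the data were seen. The members, lists and splits were chosen with earlier results of these data known. Named genes were the 6 members, their 3 nearest by pattern, up to 4 called genes per list by total UMIs, and Plat, Plau, Furin and Nrp1. 1 gene that the rule names is not reported here. A2m lies outside it and was named after its values were seen. Alternatives changed the scaling, doublets, filters, gate, clusters and depth, and 2 more, without shallow clusters and with free RNA subtracted, were chosen after seeing the data. Work was done in Python 3.11.15 with scanpy 1.11.5 for filtering and clustering, leidenalg 0.10.2 with igraph 0.11.9, scipy 1.17.1 for intervals and matplotlib 3.10.9 for plots.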

Additional observations from a re-analysis of the deposited data

Results flagged for a closer look

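Pdgfb went opposite ways under the same contrast in 2 haematopoietic classes. In T and NK cells its ratio, CGG-Cit over CGG, was 2.21 (60 and 29 UMIs), and in monocytes it was 0.328 (23 and 36 UMIs). With 1 library per group the difference between the classes was not tested.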

How the results depend on the processing

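For 19 ratios of the 6 genes 146 alternatives were computed. Of these 132 stayed within the counting interval of the reported value and 14 moved, with none reversed among the called ones of the 19. Monocyte Pdgfrb, called lower in CGG-Cit by the gate, went the other way in the Leiden monocyte clusters. It stood there at 1.34 CPM in CGG-Cit (22 UMIs) and 0.522 CPM in CGG (4 UMIs). Median-of-ratios scaling gave whole-library log2 ratios of -3.72 for Pdgfa, -2.26 for Pdgfb and -3.77 for Pdgfrb, against -3.96, -2.49 and -4.00. With cells thinned to 2000 UMIs the log2 ratios were 0.79 for stromal Pdgfc and -0.29 for stromal Pdgfra, 0.66, -0.46 and 1.37 for endothelial Pdgfa, Pdgfb and Pdgfd, and -1.81 for macrophage Pdgfa. Leiden clusters gave 0.69 for endothelial Pdgfb and -2.28, -0.35 and -2.82 for macrophage Pdgfa, Pdgfb and Pdgfc, the last at the floor of 3 UMIs. With 1 more marker the T and NK Pdgfb value was 2.16. The cause was not tested. Of 159 recomputed ratios of the 19 other called genes and classes, 146 stayed, 11 moved and 2 reversed, both with Leiden clusters (stromal Plau 0.86, macrophage Thbs1 0.65). Removing the clusters led by Gm26870 (17 CGG-Cit and 1971 CGG cells), keeping doublets, and both stricter filters moved none of them. The thinned macrophage Pdgfc value could not be formed, since its floor lay above the CGG level. The first limit is the number of tissue cells in CGG-Cit, at 28 to 56 for stromal, endothelial and macrophage cells and 2 for mural cells. Markers count as on relative to their own library, so a class may hold somewhat different cells in each. No paired analysis was possible because each group has 1 library.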

Other observations

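In CGG-Cit 37 of the 232 cells with UMIs of both Kit and Cd34 outside the stromal, endothelial, mural and glial classes had a Pdgfrb UMI, a group chosen after its values were seen. The 50 UMIs came to 6.55 CPM (4.86 to 8.63), against 0.142 CPM in the free-RNA cells, at a median depth of 32614.5 UMIs. Over all 232 cells Mpo stood at 4216 CPM, Irf8 at 261.4 CPM and Cd34 at 173.1 CPM. In the 37 cells with Pdgfrb, Mpo stood at 3653 CPM, Irf8 at 193.4 CPM and Cd34 at 227.8 CPM. Of the stromal and mural genes, Pdgfra, Col1a2 and Notch3 were at 0 UMIs there, Col1a1 stood at 0.837 CPM and Col3a1 at 3.35 CPM, below their free-RNA levels of 5.05 and 4.82 CPM. Dcn at 2.51 CPM and Rgs5 at 0.837 CPM stood above theirs of 1.19 and 0.566 CPM. These levels rest on few UMIs. Over all 232 cells Col1a1 had 20 UMIs, Col3a1 19, Dcn 9 and Rgs5 2, so no difference from free RNA is read from them. In CGG the 140 such cells held 25.9 CPM of Pdgfrb and also 1243 CPM of Col1a1, so they could not be read the same way. By Leiden clusters, mast cells and basophils of CGG-Cit held 49 Pdgfrb UMIs, monocytes 22 UMIs and myeloid progenitors 4 UMIs. How many of the 37 cells lay in any of these clusters was not examined, so their cell type is not named.

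In dendritic cells Pdgfb stood at 0 UMIs in CGG-Cit and 13 UMIs in CGG. Dendritic cells without a plasmacytoid marker, a split made after the values were seen, held 12 of those 13 Pdgfb UMIs. They numbered 6 cells in CGG-Cit and 64 cells in CGG, and 0 UMIs in the 6 cells leave an upper limit of 72.3 CPM, so no difference was detectable at that depth.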
